A study of Mus musculus with 8 samples.

Results

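Expression of 9 regulators of the FoxO, PI3K and mTOR pathway was examined in sorted mouse hematopoietic stem cells. The genes were the FoxO transcription factors Foxo1, Foxo3 and Foxo4, the kinases Akt1, Akt2, Mtor and Stk11, and the mTOR inhibitors Tsc1 and Tsc2. They were taken by symbol from the probe sets annotated to exactly 1 gene, with the brightest probe set kept where a gene had several. All 9 were found among the 19938 genes so defined. No member was chosen by its measured values, though earlier results of these data were known when the members were chosen.

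The mice received G-CSF, a cytokine that raises neutrophil output and mobilizes stem cells, or PBS as the control, and bone marrow was taken after 36 h. G-CSF was injected subcutaneously 2 times a day at 125 mcg per kg. KSL SLAM cells were sorted, which carry c-Kit, Sca-1 and CD150 and lack CD41, CD48 and lineage markers, and each of the 4 G-CSF and 4 PBS arrays (MoGene 1.0 ST) held RNA from a pool of 5 to 10 mice. The labels used here state no strain, age, sex, genotype or allele for either group. The comparison asks which of these regulators differ in transcript level after G-CSF.

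PI3K makes a membrane lipid that recruits AKT, and active AKT phosphorylates FoxO factors, which 14-3-3 proteins then hold in the cytoplasm. AKT also releases mTOR complex 1 from its inhibitors TSC1 and TSC2, whereas LKB1, the product of Stk11, opposes mTOR through the kinase AMPK. In hematopoietic stem cells, loss of FoxO factors, of Tsc1 or of Stk11 is known to end quiescence and exhaust the stem cell pool. These proteins are controlled largely by phosphorylation and location, neither of which an expression array measures.

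Promoter sequence was examined first for the element that FoxO factors bind, GTAAACA, and for the element of STAT factors, TTCNNNGAA, which act downstream of the G-CSF receptor. RefSeq promoter windows (GRCm38.p6, 250 bases before to 50 after each start) were found for 8 of the 9 members, with Foxo4 the exception, and both strands were searched. The FoxO element was in windows of 2 of these 8 genes, Akt1 and Stk11, against 4.05% of all 27025 genes with a window and 3.65% of all 32851 windows. The STAT element was in windows of Akt2 and Mtor, 2 of 8 genes, against 9.55% of all genes and 8.3% of all windows. Of 28 measured FoxO target genes with a window, 5 held the FoxO element and 5 the STAT element. Neither string of letters was in the Foxo1 or Foxo3 window. The stretches shown lie before the start and run 5′ to 3′ on the gene's strand, with the matching letters in capitals. Akt1 and Bcl2l11 show the FoxO element in a member and in a FoxO target gene. Akt2, Mtor and Bcl6 show the STAT element in the 2 members that have it and in the FoxO target with the lowest p after G-CSF. In Akt1 the FoxO element is read on the opposite strand, and it ends 155 bases before the start.
Akt1, chr12:112675014-112675070, minus strand: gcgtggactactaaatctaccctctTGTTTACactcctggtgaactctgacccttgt
Bcl2l11, chr2:128125788-128125842, plus strand: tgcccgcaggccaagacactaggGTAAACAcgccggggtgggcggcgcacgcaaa
Akt2, chr7:27591367-27591425, plus strand: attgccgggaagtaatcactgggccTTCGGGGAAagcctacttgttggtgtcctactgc
Mtor, chr4:148448332-148448387, plus strand: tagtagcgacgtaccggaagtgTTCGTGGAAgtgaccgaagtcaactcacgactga
Bcl6, chr16:23981338-23981476, minus strand: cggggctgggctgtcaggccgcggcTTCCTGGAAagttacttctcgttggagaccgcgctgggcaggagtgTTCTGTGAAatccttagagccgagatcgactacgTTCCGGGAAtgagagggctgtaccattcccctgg
A match is a description of letters and does not show that a factor binds there.

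All values are log2 of the deposited probe set intensity, and the number of arrays limits their precision. The arrays had like medians over all genes, 5.74 to 5.89, but PBS replicate 3 stood apart, with an interquartile range of 1.68 against 2.42 to 2.80 in the others. It correlated with them across genes at 0.883 to 0.903. Results that rest on it are given with and without it. The STAT target Socs3, a check of the treatment, lay at 5.99 to 6.40 on the PBS arrays and 7.27 to 7.75 on the G-CSF arrays. Kit, the gene of the sorted c-Kit protein, was bright on every array at 10.24 to 10.94, whereas Ly6a, the gene of Sca-1, was not analysed here. No detection calls were used, so an absent marker could not be told from a dim one. Neutrophil markers were above the PBS mean after G-CSF for 22 of 22 measured genes, of which 0 passed the adjusted threshold and 19 had an unadjusted p under 0.05 (limma). Their summed intensity was 7939 to 18367 on the PBS arrays and 19858 to 51106 on the G-CSF arrays. Of 19 proliferation genes, 19 had a positive log2 difference and 0 passed, with a median of 0.65. At an unadjusted p under 0.05 (limma) 12 of them were higher, against 6.07% of all genes. For 7 of them all G-CSF arrays lay above all PBS arrays, against 3.37% of all genes.

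No member passed the test across all genes. At a limma adjusted p under 0.05, 0 of 9 members were called, against 0.0953% of all genes called higher and 0.0% called lower, and the members' adjusted p ran from 0.568 to 0.998. At an unadjusted p under 0.05 the count was again 0 of 9, where 9.01% of all genes lay under it. The G-CSF and PBS values did not overlap for 2 members, against 6.15% of all genes. All G-CSF arrays lay above all PBS arrays for 1 member, Foxo1, against 3.37% of all genes, and below them for 1 member, Foxo3, against 2.78%. The remaining members overlapped between the groups.

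**Figure D1:**
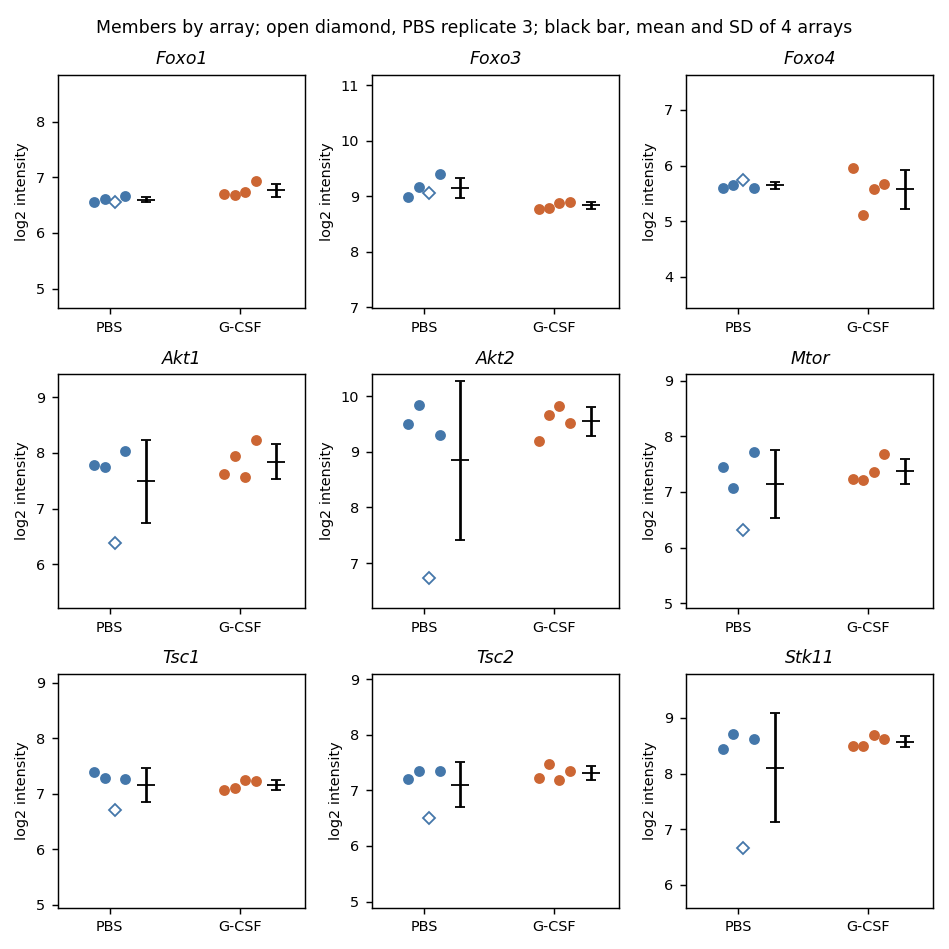
Log2 intensity (vertical axis, each panel spanning the same range of log2 units) of the 9 members on the 4 PBS and 4 G-CSF arrays, with the mean and SD of each group as a black bar and PBS replicate 3 as an open diamond. PBS replicate 3 is the lowest of the 8 arrays for Akt1, Akt2, Mtor, Tsc1, Tsc2 and Stk11, but not for the FoxO genes.

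Foxo3, the FoxO factor on which adult stem cell maintenance is known to depend most, was lower on every G-CSF array than on any PBS array. Its log2 intensity was 8.98, 9.16, 9.05 and 9.40 in PBS replicates 1 to 4 and 8.78, 8.79, 8.87 and 8.90 in G-CSF replicates 1 to 4. The G-CSF values were close together, and the gap between the groups was narrow. The mean was 9.15 ± 0.18 (SD, n = 4) after PBS and 8.83 ± 0.06 (SD, n = 4) after G-CSF, a log2 difference of -0.32 ± 0.16 SE, or 0.803 times the PBS level. The difference did not pass (limma adjusted p = 0.568), and its 95% interval ran from -0.67 to 0.04. It was -0.35 without PBS replicate 3, with an interval of -0.67 to -0.03 and an adjusted p = 0.518 (limma). After renewed quantile normalization it was -0.48 with an adjusted p = 0.433 (limma), and the groups still did not overlap. RNA from sorted pools cannot tell fewer Foxo3-expressing cells from less Foxo3 RNA per cell, which holds for every gene here. The neutrophil marker mean (log2) was 10.16, 10.16, 8.14 and 8.76 in G-CSF replicates 1 to 4, so the pair of arrays with the most neutrophil signal also had the lowest Foxo3 values. In PBS replicates 1 to 4 the marker mean was 8.02, 6.97, 7.31 and 7.21, and replicate 1, with the most neutrophil signal of these, had the lowest Foxo3 value. The part of the neutrophil markers in the Foxo3 difference was not tested.

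Foxo1, which shares the FoxO DNA-binding domain and is known for its part in lymphoid development and insulin response, lay higher on the G-CSF arrays as deposited. Its log2 intensity was 6.56, 6.61, 6.56 and 6.66 in PBS replicates 1 to 4 and 6.70, 6.68, 6.74 and 6.94 in G-CSF replicates 1 to 4. The gap between the highest PBS and the lowest G-CSF value was smaller than the SD of either group, and G-CSF replicate 4 stood above the other arrays. The log2 difference was 0.17 ± 0.15 SE with a 95% interval of -0.17 to 0.50 (limma adjusted p = 0.667). Leaving out PBS replicate 3 gave 0.15, and leaving out G-CSF replicate 4 gave 0.11. Quantile normalization of all arrays gave -0.01, and the groups then overlapped. On that scale PBS replicate 3 had the highest Foxo1 value, 6.89. Quantile normalization with PBS replicate 3 left out gave 0.06. The sign turned in 1 of 19 alternatives, the quantile normalization that included this array.

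Foxo4, the X-linked FoxO factor, was alike in both groups on average but more spread after G-CSF. It measured 5.60, 5.66, 5.73 and 5.60 in PBS replicates 1 to 4, and 5.96, 5.11, 5.57 and 5.66 in G-CSF replicates 1 to 4. G-CSF replicate 1 was the highest and G-CSF replicate 2 the lowest of the 8 arrays, so the PBS values lay inside the G-CSF range. The SD was 0.06 after PBS and 0.35 after G-CSF. The log2 difference was -0.07 ± 0.20 SE (limma adjusted p = 0.88), and it was 0.08 without G-CSF replicate 2. Foxo6, the FoxO factor best known from brain, had a log2 difference of -0.16 ± 0.23 SE, and -0.0080 without PBS replicate 3. Both genes were dim. Foxo4 lay under the array median on every array but G-CSF replicate 1, and Foxo6 on every array.

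Whether FoxO genes responded unequally was tested on their difference within each array, which a shift of a whole array leaves unchanged. In all, 5 pairs of members were compared. The difference Foxo1 minus Foxo3 was -2.43, -2.55, -2.49 and -2.74 in PBS replicates 1 to 4 and -2.08, -2.11, -2.13 and -1.95 in G-CSF replicates 1 to 4. The level of such a difference depends on the probes and carries no meaning, but its shift between the groups does. All G-CSF values lay above all PBS values, PBS replicate 3 was in the midst of its group, and the shift was 0.48. The exact permutation p = 0.0286 is the smallest that 4 against 4 arrays can give. Adjusted over the 5 pairs, the exact permutation p = 0.143 did not pass. With 5 pairs, 1 pair alone at the smallest p cannot pass after adjustment, so this outcome does not decide whether the pair shifted. The shift was 0.47 after renewed quantile normalization, and 0.42 to 0.52 when each array was left out in turn. Foxo1 minus Foxo4 shifted by 0.24 and Foxo3 minus Foxo4 by -0.25, and both overlapped between the groups (exact permutation p = 0.286 and 0.314, adjusted p = 0.393 each). Tsc1 minus Tsc2 shifted by -0.21 (exact permutation p = 0.143, adjusted p = 0.357) and Akt1 minus Akt2 by -0.35 (exact permutation p = 0.429, adjusted p = 0.429). Without PBS replicate 3 the shift of Akt1 minus Akt2 was -0.02. It was taken with the brighter Akt2 probe set, which is in doubt, as described below.

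**Figure D2:**
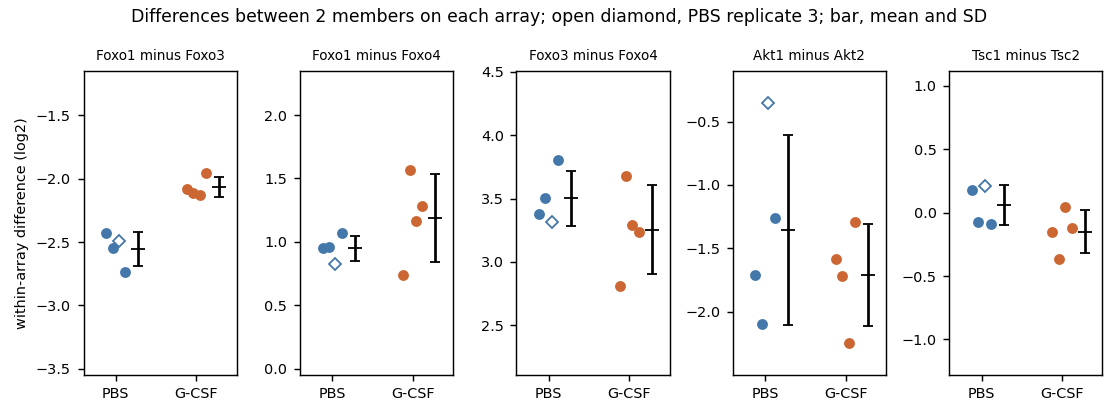
Within-array log2 difference between the members of 5 pairs (vertical axis, the same span in each panel) on the PBS and G-CSF arrays, with the mean and SD as a bar and PBS replicate 3 as an open diamond. The groups separate for Foxo1 minus Foxo3, from a mean of -2.55 after PBS to -2.07 after G-CSF, and overlap for the other pairs.

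The 3 genes whose mean-centred values over the 8 arrays came closest to those of Foxo3 were Gng7, a G protein gamma subunit, the bitter taste receptor Tas2r125 and the collagen-modifying enzyme gene P3h3. Their root mean square differences from Foxo3 were 0.07, 0.08 and 0.08 on the log2 scale, where the median of the 16975 genes compared was 0.35. P3h3 had a log2 difference between the groups of -0.44. Tas2r125 was dim, at 2.98 to 3.42 where the array medians were 5.74 to 5.89. No detection calls were used, so its profile may be background signal. The profiles closest to Foxo1 were those of Myo5c, Rnf139 and Fam171a1, each within 0.05, and those closest to Foxo4 were Sox6os, Hgfac and Krtap4-2, within 0.10. A gene that varies little, such as Foxo1, lies close to any other gene that varies little.

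The AKT kinases carry the PI3K signal to FoxO and TSC2. Akt1, the broadly expressed form, measured 7.79, 7.75, 6.39 and 8.04 in PBS replicates 1 to 4 and 7.57 to 8.24 on the G-CSF arrays. Apart from PBS replicate 3, the groups covered much the same range. Akt1 had a log2 difference of 0.35 ± 0.33 SE with all arrays (limma adjusted p = 0.675) and -0.02 ± 0.19 SE without PBS replicate 3, with a 95% interval of -0.44 to 0.41.

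Akt2, the form best known for insulin-stimulated glucose uptake, had 2 probe sets annotated to it alone, and they disagreed. Whether both measure Akt2 could not be checked without probe sequences, so the values of either may not be those of Akt2. The Akt2 promoter lies on chromosome 7, and the dimmer probe set, 10551393, is numbered near that of Bbc3 (10550290), also on chromosome 7. The brighter one, 10374364, is numbered between those of Stk11 on chromosome 10 (10364683) and Akt1 on chromosome 12 (10402766). The doubt is thus greater for the brighter probe set, whose values are the Akt2 values used here. Whether the probe sets of the other genes measure those genes was not checked, Map1lc3b, Lamtor3 and Ywhaz included. The brighter probe set, 10374364, measured 9.50, 9.85, 6.74 and 9.30 in PBS replicates 1 to 4 and 9.20, 9.66, 9.82 and 9.53 in G-CSF replicates 1 to 4. Only PBS replicate 3 stood apart on it, at 2.81 under the mean of the other PBS arrays. The other probe set, 10551393, measured 8.68, 7.87, 8.91 and 8.37 in PBS replicates 1 to 4, and there PBS replicate 3 was the highest PBS value. The log2 difference was 0.71 ± 0.55 SE by the brighter probe set (limma adjusted p = 0.632) and -0.09 by the other. The brighter probe set gave 0.00 without PBS replicate 3, with a 95% interval of -0.43 to 0.44.

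Stk11, which encodes the kinase LKB1 that activates AMPK, measured 8.44, 8.72, 6.65 and 8.61 in PBS replicates 1 to 4 and 8.49, 8.50, 8.69 and 8.62 in G-CSF replicates 1 to 4. The other 7 arrays lay between 8.44 and 8.72, and PBS replicate 3 was far below them. With all arrays the log2 difference was 0.47 ± 0.39 SE (limma adjusted p = 0.642), with a 95% interval of -0.39 to 1.32. Without PBS replicate 3 it was -0.02 ± 0.13 SE, with an interval of -0.32 to 0.29.

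Tsc1 and Tsc2 form the complex that switches off Rheb, the activator of mTOR complex 1. Tsc1 measured 7.38, 7.28, 6.71 and 7.26 in PBS replicates 1 to 4 and 7.06, 7.11, 7.24 and 7.23 in G-CSF replicates 1 to 4. The other 3 PBS arrays lay above all G-CSF arrays, and PBS replicate 3 lay below them. The log2 difference was 0.00 ± 0.19 SE with all arrays (limma adjusted p = 0.998) and -0.15 ± 0.13 SE without PBS replicate 3 (limma adjusted p = 0.795). With that array left out, a choice made after the values were seen, the groups did not overlap for 3 of the 9 members, against 8.71% of all genes. Foxo1 was the 1 member higher on all G-CSF arrays, against 4.76% of all genes, and Foxo3 and Tsc1 were the 2 lower, against 3.94%. Tsc2 was 7.20 to 7.35 on the other PBS arrays, 6.50 on PBS replicate 3 and 7.19 to 7.47 on the G-CSF arrays. Its log2 difference was 0.21 ± 0.21 SE with all arrays (limma adjusted p = 0.692) and 0.01 ± 0.13 SE without PBS replicate 3.

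Mtor, the kinase at the core of both mTOR complexes, was 7.45, 7.07, 6.31 and 7.71 in PBS replicates 1 to 4 and 7.21 to 7.68 on the G-CSF arrays. The PBS arrays enclosed the G-CSF values even without replicate 3. Mtor had a log2 difference of 0.23 ± 0.28 SE with all arrays (limma adjusted p = 0.728) and -0.04 ± 0.19 SE without PBS replicate 3.

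In PBS replicate 3 all 6 genes outside the FoxO family were the lowest of the 8 arrays. They lay 0.59 (Tsc1) to 2.81 (Akt2, brighter probe set) under the mean of the other PBS arrays. The dimmer Akt2 probe set lay 0.60 above it. The share of all genes lowest there was not counted. Of the 9 members 6 were lower there by 0.5 or more, against 20.2% of all genes. By 1 or more it was 4 members, against 9.46%, whereas the median gene was 0.20 higher. Other pathway genes went either way, such as Lamtor3 (-2.21), Pik3cd (-1.38), Sgk3 (0.65) and Foxo6 (0.61). The FoxO genes departed by -0.13 (Foxo3), -0.05 (Foxo1) and 0.11 (Foxo4). No label sets this array apart from the others.

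**Figure D3:**
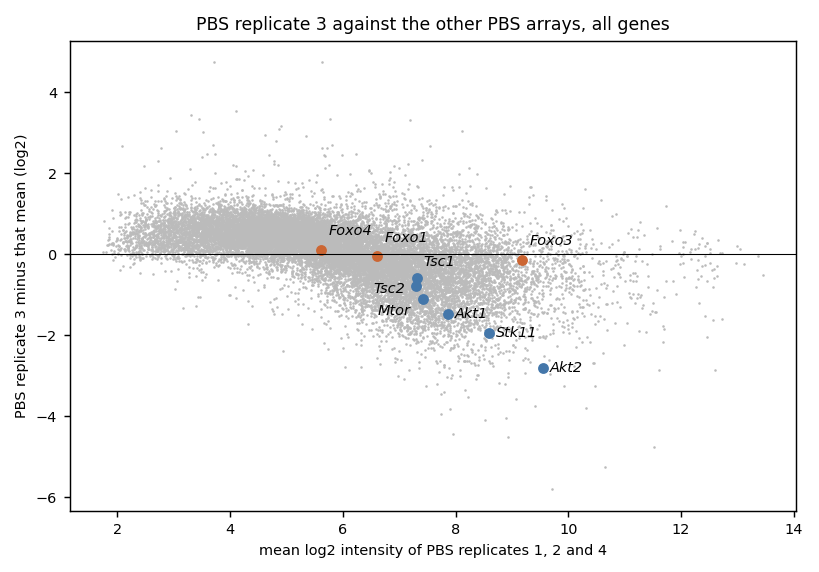
Departure of PBS replicate 3 from the mean of PBS replicates 1, 2 and 4 (vertical axis, log2) against that mean (horizontal axis, log2 intensity) for all 19938 genes in grey, with FoxO members in orange and the other members in blue. The 6 blue members lie below 0, from -0.59 to -2.81, and the 3 orange members lie between -0.13 and 0.11.

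The 95% intervals show how large a difference these arrays could have hidden. With all arrays, the interval lay within a log2 difference of -1 to 1 for 6 of the 9 members, against 82.4% of all genes, the exceptions being Akt1, Akt2 and Stk11. Without PBS replicate 3 it lay within those bounds for all 9, against 89.3% of all genes. With all arrays 7 of the 9 members had a log2 difference above 0, with a median of 0.21, where 41.7% of all genes did, with a median of -0.07. Without PBS replicate 3 it was 3 of 9, with a median of -0.02, where 46.9% of all genes did, with a median of -0.02. Without that array none of the 9 passed, against 0.13% of all genes, and 1 of 9, Foxo3, had an unadjusted p under 0.05 (limma), against 8.76% of all genes.

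**Figure D4:**
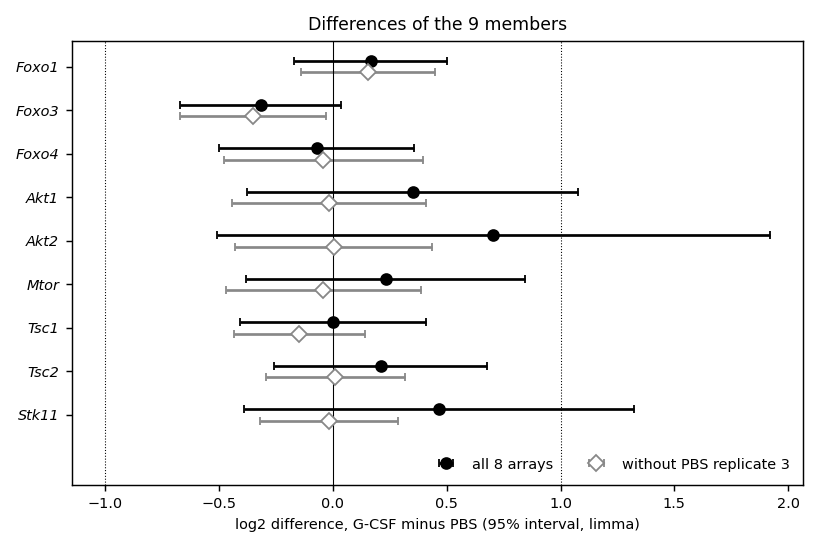
Log2 difference, G-CSF minus PBS, of each member with its 95% interval from limma (horizontal axis), with all 8 arrays as filled circles and without PBS replicate 3 as open diamonds; dotted lines mark -1 and 1. All intervals with 8 arrays cross 0, and without PBS replicate 3 only that of Foxo3, -0.67 to -0.03, does not.

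The other genes of the pathway were described by 9 lists holding 189 genes, of which 180 were measured. None passed the adjusted threshold in either direction, and the lowest adjusted p was 0.104 (limma). At an unadjusted p under 0.05, 11 of the 180 were higher, or 6.11%, against 6.07% of all genes, and 0 were lower, against 2.94% of all genes. The share of higher genes was thus near the background. All G-CSF arrays lay above all PBS arrays for 5 of the 180, against 3.37% of all genes. These 5 were Pik3cb, Pik3r5, Gsk3a, Bcl6 and Map1lc3b. For 0 of the 180 all G-CSF arrays lay below, against 2.78% of all genes. The median log2 difference of the 180 was 0.11, and 0.00 without PBS replicate 3.

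**Figure D5:**
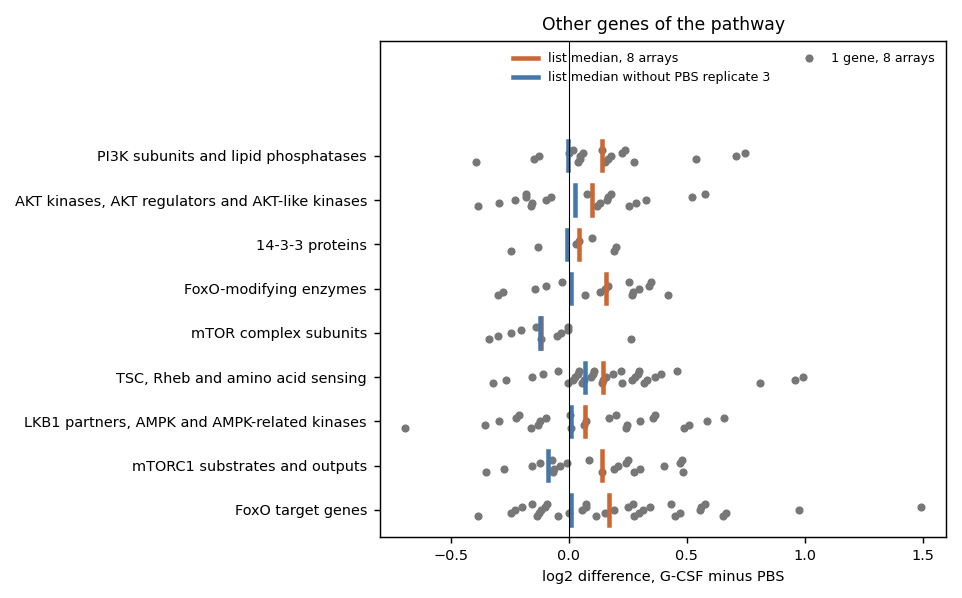
Log2 difference, G-CSF minus PBS (horizontal axis), of each measured gene in the 9 pathway lists as a grey point, with the list median for all 8 arrays in orange and without PBS replicate 3 in blue. Without that array the medians lie between -0.12 and 0.07, and the gene farthest to the right is the FoxO target Bcl6 at 1.49.

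Upstream, 16 of 19 genes of PI3K subunits and lipid phosphatases had a positive log2 difference with all arrays and 9 of 19 without PBS replicate 3, and none passed (median 0.14, and 0.00 without that array). Pik3cb, the catalytic subunit p110 beta, had the lowest p in the list. It measured 6.51, 6.10, 5.55 and 6.18 in PBS replicates 1 to 4 and 7.07, 6.53, 6.84 and 6.89 in G-CSF replicates 1 to 4, so the groups were just apart. Its log2 difference was 0.75 ± 0.22 SE (limma adjusted p = 0.352), and 0.57 without PBS replicate 3. Pik3r5, the regulatory subunit of the PI3K gamma enzyme, had 0.54 ± 0.22 SE without overlap, and Pik3cd, the leukocyte subunit p110 delta, had 0.71 ± 0.32 SE with overlap, or 0.36 without PBS replicate 3. Pik3cg, the catalytic subunit of PI3K gamma, had 0.05 ± 0.27 SE and the lipid phosphatase Inpp5d (SHIP1), which opposes PI3K in blood cells, 0.14 ± 0.26 SE, and both had the opposite sign without PBS replicate 3 (-0.20 and -0.14).

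Around AKT, 11 of 20 measured regulators had a positive log2 difference and none passed (median 0.10), and 11 of 20 did without PBS replicate 3 (median 0.02). Gsk3a, a kinase that AKT inhibits, measured 8.25 to 8.91 on the PBS arrays and 8.92 to 9.17 on the G-CSF arrays, so the groups met but did not overlap. Its log2 difference was 0.52 ± 0.18 SE (limma adjusted p = 0.454), and 0.50 without PBS replicate 3. Trib1, a pseudokinase known to bind AKT and the myeloid factor C/EBP alpha, had 0.58 ± 0.24 SE, and Sgk3, an AKT-like kinase, 0.28 ± 0.20 SE. Sgk3 had 0.45 without PBS replicate 3 and 0.16 without PBS replicate 1. The 14-3-3 proteins, which hold phosphorylated FoxO factors, had a median of 0.04 over 7 genes, with 5 above 0 and none past the threshold, and of -0.0057 with 3 above 0 without PBS replicate 3. Their lowest p values belonged to Ywhaz (-0.24), Ywhae (0.20) and Ywhab (0.19, but -0.0057 without PBS replicate 3). Of 16 FoxO-modifying enzymes 11 were above 0 and none passed (median 0.16, and 0.01 without PBS replicate 3). Skp2, which targets Foxo1 for degradation, had 0.34 ± 0.21 SE, and 0.16 without PBS replicate 4. Ogt, which adds sugar to FoxO factors, had -0.30 ± 0.21 SE, -0.48 without PBS replicate 3 and -0.19 without PBS replicate 4. The stress kinase Mapk8 had -0.28 ± 0.20 SE, and -0.10 without PBS replicate 2.

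Most genes listed with the mTOR complexes had negative log2 differences, some of them near 0, as for Akt1s1 (-0.0021) and Mlst8 (-0.0041). The list holds Telo2, Tti1 and Tti2, which are not subunits, and leaves out Mtor (0.23). Of its 11 measured genes 1 had a positive log2 difference, where 41.7% of all genes did. Without PBS replicate 3 it was 2, where 46.9% of all genes did. None passed in either fit (median -0.12 with and without that array). Rptor, the defining subunit of mTOR complex 1, measured 7.23, 6.62, 6.66 and 6.71 in PBS replicates 1 to 4 and 6.25, 6.71, 6.40 and 6.67 in G-CSF replicates 1 to 4, so the groups overlapped. Its log2 difference was -0.30 ± 0.20 SE (limma adjusted p = 0.602), and -0.16 without PBS replicate 1. Rictor, the defining subunit of mTOR complex 2, had -0.25 ± 0.19 SE, and -0.15 without G-CSF replicate 1. Prr5, another subunit of that complex, had -0.34 ± 0.25 SE, and -0.11 without PBS replicate 2.

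Among TSC, Rheb and amino acid sensing genes 27 of 33 were above 0, and 20 of 33 without PBS replicate 3, with none past the threshold (median 0.14, and 0.07 without that array). The lowest p values belonged to Lamtor1 and Lamtor3, subunits of the Ragulator complex that anchors mTOR complex 1 at the lysosome, and to Tbc1d7, the third subunit of the TSC complex. Lamtor1 measured 6.91, 5.76, 5.52 and 5.68 in PBS replicates 1 to 4 and 6.62 to 6.995 on the G-CSF arrays, so that PBS replicate 1 lay inside the G-CSF range. Its log2 difference was 0.81 ± 0.28 SE (limma adjusted p = 0.453). Lamtor3 had 0.96 ± 0.50 SE, but 0.40 without PBS replicate 3, and Tbc1d7 had 0.29 ± 0.17 SE. Tbc1d7 was dim, under the median on every array. Rheb had 0.33 ± 0.27 SE, but 0.0607 without PBS replicate 2 and 0.54 without PBS replicate 1.

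LKB1 partners, AMPK and AMPK-related kinases had 15 of 24 genes above 0 and none past the threshold (median 0.07), and 13 of 24 without PBS replicate 3 (median 0.01). Mark4, a microtubule-affinity kinase that LKB1 activates, had 0.59 ± 0.24 SE, Mark1 had -0.30 ± 0.16 SE, and Sik1, a salt-inducible kinase in the same family, had -0.69 ± 0.32 SE (limma adjusted p = 0.551), -0.85 without PBS replicate 3 and -0.42 without G-CSF replicate 2. Mark1 was dim, under the median on every array. Prkaa1, the catalytic AMPK subunit, had 0.49 ± 0.29 SE, and 0.17 without PBS replicate 3. Of 21 mTORC1 substrates and outputs 12 were above 0, and 8 without PBS replicate 3, again with none past the threshold (median 0.14, and -0.09 without that array). The autophagy genes Atg13 and Ulk1, whose proteins mTOR complex 1 inhibits, had 0.47 ± 0.24 SE and 0.40 ± 0.22 SE, and Ulk1 had 0.22 without PBS replicate 3. The adaptor Grb10, which the complex stabilizes, had -0.35 ± 0.21 SE, and -0.20 without G-CSF replicate 4.

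Downstream, 23 of 34 measured FoxO target genes were above 0, and 18 of 34 without PBS replicate 3, with none past the threshold (median 0.17, and 0.01 without that array). Bcl6, a transcriptional repressor, had the lowest p of the 180 pathway genes. It measured 5.58, 6.004, 5.29 and 6.66 in PBS replicates 1 to 4 and 7.54, 7.66, 7.32 and 6.96 in G-CSF replicates 1 to 4. All G-CSF arrays lay above the PBS arrays, with PBS replicate 4 the closest. Bcl6 had a log2 difference of 1.49 ± 0.29 SE (limma adjusted p = 0.104), and 1.29 ± 0.26 SE without PBS replicate 3. Leaving out PBS replicate 4 gave 1.75 and passed (limma adjusted p = 0.0432, against 0.0432 to 0.365 over 19 alternatives). One of its RefSeq promoter windows holds the 3 STAT elements printed above, another holds 1 STAT element, and none of its windows holds the FoxO element. Whether these elements bear on the difference was not tested. On the G-CSF arrays Bcl6 was highest in replicates 1 and 2, the arrays with the highest neutrophil marker means. On the PBS arrays the order differed, since replicate 1 had the highest neutrophil mean, 8.02, with Bcl6 at 5.58, and replicate 4 had the highest Bcl6, 6.66, with a neutrophil mean of 7.21. The part of neutrophil RNA in this difference was not tested.

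Map1lc3b, which encodes the autophagosome protein LC3B, measured 8.99, 8.90, 8.01 and 9.41 in PBS replicates 1 to 4 and 9.68, 9.76, 9.88 and 9.90 in G-CSF replicates 1 to 4. The groups did not overlap, and the G-CSF values were close together. Map1lc3b had a log2 difference of 0.98 ± 0.26 SE (limma adjusted p = 0.303), and 0.70 ± 0.16 SE without PBS replicate 3. Whether its probe set, 10419354, measures Map1lc3b was not checked. Bcl2l11, the death gene Bim whose promoter carries the FoxO element printed above, measured 5.55 to 5.89 on the PBS arrays and 5.88 to 6.60 on the G-CSF arrays. The ranges overlapped slightly, at G-CSF replicate 3, and the log2 difference was 0.56 ± 0.19 SE (limma adjusted p = 0.452). S1pr1, a receptor for a lipid that guides cells out of tissues, had 0.67 ± 0.24 SE and the death ligand Tnfsf10 0.65 ± 0.29 SE. These last 2 genes were named after their values were seen. They complete the 5 of 34 FoxO targets that were higher at an unadjusted p under 0.05 (limma), against 6.07% of all genes. At that p 0 of the 34 were lower, against 2.94% of all genes, and no set test was run.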

How the data were processed

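The deposited table gives a linear intensity for every probe set on each array. The submitters' processing notes name RMA, with no version. Intensities ran from 2.15 to 16162.5, so log2 was taken. Of 35556 probe sets, 21789 carried 1 gene symbol, 1621 several and 12146 none, per the platform annotation. RefSeq (GRCm38.p6) held the identifiers of 21698 of those with 1 symbol, and 0 symbols changed. Taking the brightest probe set of each gene left 19938 genes.

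The treatments were compared by limma (version 3.58.1, R 4.3.3). Tests were 2-sided, and p was adjusted across all 19938 genes by Benjamini-Hochberg and called under 0.05. Pairs of members were compared by exact 2-sided permutation tests (SciPy 1.17.1). The labels name no batch, and the p-values measure the spread between pooled samples. The scripts were tested on simulated data. Members and lists were chosen with earlier results of these data known. Genes named were the members, a fixed set of pathway genes, the 3 genes of lowest p in each pathway list and the 3 closest profiles to each FoxO factor.

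Marker lists gave these median log2 differences, with 0 genes past the threshold in each list: neutrophil 1.94, monocyte and macrophage 0.28, lymphoid -0.27, erythroid -0.24, megakaryocyte -0.28, stem cell -0.04, progenitor and sort markers 0.42, proliferation 0.65 and immediate-early -0.01. The progenitor and sort list holds Cd48 (0.64) and Itga2b (0.10), the genes of CD48 and CD41, and also Flt3, Cd34, Il7r and Ptprc, which the labels do not name as negative. Alternatives changed the variance moderation, blocking, weighting, normalization, pseudocount, probe set choice, dim genes or the arrays included.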

Additional observations from a re-analysis of the deposited data

Results flagged for a closer look

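In groups of 4 arrays, 84 groups of values of the named genes were screened for a value far from the other 3. In all 4 were found, where chance would give about 1 in 20 groups if the groups were independent. The groups share the same arrays, so the count does not show whether any departure is due to chance. PBS replicate 3 was the lowest of the 8 arrays for all 6 members outside the FoxO family, though among members only Stk11 was flagged. For Stk11, PBS replicate 3 was the lowest PBS array, its gap to the nearest array taking 0.866 of the group's range. For Pik3r5, PBS replicate 2 was the lowest PBS array (0.886 of the range). For Mapk8, PBS replicate 2 was the highest PBS array (0.845 of the range), and for Rptor, PBS replicate 1 was the highest (0.851 of the range). The limit for a group of 4 is 0.829.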

How the results depend on the processing

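No member passed the threshold under any of 20 alternatives, and Foxo3 kept its sign in all 19 that gave a value for it (-0.48 to -0.23). Signs of other log2 differences turned. When each array was left out in turn, Foxo4 ran from -0.20 to 0.0834, Akt1 from -0.0171 to 0.53, Mtor from -0.0417 to 0.42, Tsc1 from -0.15 to 0.0767, Stk11 from -0.0171 to 0.67, Ywhab from -0.0057 to 0.28, Pik3cg from -0.20 to 0.30 and Inpp5d from -0.14 to 0.27. The sign turned without PBS replicate 3 for all of these but Foxo4, which turned without G-CSF replicate 2. Pik3cg also turned without G-CSF replicate 2 (-0.0134), and Tsc1 without G-CSF replicate 3 (-0.0242) or 4 (-0.0230). Quantile normalization without PBS replicate 3 gave Akt1 -0.0941, Akt2 -0.0947, Mtor -0.13, Tsc1 -0.23, Tsc2 -0.0751, Stk11 -0.0929, Ywhab -0.0916, Pik3cg -0.29, Inpp5d -0.22 and Foxo6 0.0394. Quantile normalization with all arrays gave Foxo1 -0.0092, Tsc1 -0.18, Ywhae -0.0075, Pik3cg -0.15 and Inpp5d -0.0363. Array weights gave Mtor -0.0132, Tsc1 -0.11, Pik3cg -0.12 and Inpp5d -0.0791. Tsc1 had -0.0018 with median centring and -0.0005 with a pseudocount of 16. The dimmer probe set gave Akt2 -0.0943 and Ywhaz 0.0487. Akt1 minus Akt2 shifted by 0.045 with the mean of the probe sets, 0.44 with the dimmer one and 0.0006 with quantile normalization without PBS replicate 3. The count of all genes past the threshold was 19, but 40 with array weights, 7 after quantile normalization, 0 with all probe sets, 52 at an adjusted p under 0.1, and 3 to 31 when each array was left out (3 without G-CSF replicate 2, 7 without G-CSF replicate 4, 10 without G-CSF replicate 1 and 31 without G-CSF replicate 3). For the pathway lists it was 0 to 1 when each array was left out, the 1 being Bcl6 without PBS replicate 4. The cause of these changes was not tested. With the replicate number as a replicate block the count was 23, and 0 members passed. Same-numbered arrays did not deviate together (correlations -0.03, 0.06, 0.06 and 0.14), so the numbers were not taken as pairs.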
